A study of Mus musculus with 2 samples.

Results

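The peaks described come from a list of peaks called as binding of the transcription factor KLF4. They are those of 5 mouse genes: the contractile and cytoskeletal genes Cald1, Vim, Myh9 and Mylk, and Fap, a marker of activated fibroblasts. The list gave 7 peaks for them, of 4216 in all. Of these, 6 peaks carried the symbol of 1 of the 5 genes, and 1 further peak lay in an intron of Mylk but was assigned to another gene. The genes were chosen by the presence of peaks in the same list, with earlier results of it known and, apart from Fap, among contractile and cytoskeletal genes. Having a peak is thus not a finding here, and no test was made on it.

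The cells were primary hepatic portal fibroblasts, which lie along the portal veins and bile ducts, sorted by a red fluorescent reporter from Clec3bCreERT2;R26tdT mice and given extra Klf4 by lentivirus. The reporter marks cells in which the Clec3b gene drives an inducible Cre. There was 1 KLF4 ChIP library (chromatin immunoprecipitation with sequencing) and 1 input library of unprecipitated chromatin, both from cells with the same overexpression, so no value has a replicate error and binding without extra Klf4 was not analysed here. The question of the study is how KLF4 bears on the step by which portal fibroblasts become myofibroblasts, cells that contract and lay down scar. Binding data hold no RNA levels, so the identity of the cells could not be checked against markers, and no change in a gene's activity is described.

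Contraction of a non-muscle cell rests on bundles of actin filaments pulled by myosin. Myosin light chain kinase, the product of Mylk, phosphorylates the light chains and so switches the motor on, and myosin phosphatase reverses this. Myh9 encodes the heavy chain of non-muscle myosin IIA, the motor itself, and Cald1 encodes caldesmon, which lies along the actin filament and restrains the motor. Vim encodes vimentin, the intermediate filament protein of mesenchymal cells. Fap encodes fibroblast activation protein, a serine protease on the surface of activated fibroblasts, and is a marker of those cells more than a part of the contractile apparatus. KLF4 is a zinc-finger factor that binds GC-rich and CACCC-type sequence, and in smooth muscle it is known as a repressor of contractile genes.

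The RefSeq promoters of the genes with promoter peaks are shown. The Myh9 peak lay over a transcript start, and the Vim and Cald1 peaks were annotated to the starts of short transcripts. Each run is the 250 bases before a gene start in RefSeq, on the older build GRCm38.p6, written 5′ to 3′ on the strand of the gene, with CACCC or its reverse complement GGGTG in capitals. The peaks themselves are on GRCm39, and positions were not carried from 1 build to the other, so the sequences show the promoters and not the peaks. Cald1 has 2 starts in RefSeq, 111 kb apart, and the order below follows the gene. The starts to which its peaks were annotated were 1821 bp apart, so the peaks cannot lie near both RefSeq starts. Whether they lie near either was not tested. The windows lie at chr15:77842176-77842425 on the minus strand for Myh9 and, on the plus strand, at chr2:13574061-13574310 for Vim, at chr6:34598254-34598503 for the first Cald1 start and at chr6:34709194-34709443 for the second.
Myh9: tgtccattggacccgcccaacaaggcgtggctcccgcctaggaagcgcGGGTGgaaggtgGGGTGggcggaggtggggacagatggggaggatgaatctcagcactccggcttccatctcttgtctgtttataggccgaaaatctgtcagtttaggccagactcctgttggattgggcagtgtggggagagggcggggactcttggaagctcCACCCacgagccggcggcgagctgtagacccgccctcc
Vim: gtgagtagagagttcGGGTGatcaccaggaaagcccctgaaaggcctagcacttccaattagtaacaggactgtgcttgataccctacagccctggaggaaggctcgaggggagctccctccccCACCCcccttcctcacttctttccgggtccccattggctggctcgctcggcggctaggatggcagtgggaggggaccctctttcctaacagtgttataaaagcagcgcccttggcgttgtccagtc
Cald1, first start: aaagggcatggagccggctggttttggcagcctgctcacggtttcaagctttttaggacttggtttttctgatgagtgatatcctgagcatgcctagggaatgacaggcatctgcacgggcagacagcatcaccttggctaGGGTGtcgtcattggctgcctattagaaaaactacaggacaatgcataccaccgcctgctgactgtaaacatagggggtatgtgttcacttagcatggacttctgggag
Cald1, second start: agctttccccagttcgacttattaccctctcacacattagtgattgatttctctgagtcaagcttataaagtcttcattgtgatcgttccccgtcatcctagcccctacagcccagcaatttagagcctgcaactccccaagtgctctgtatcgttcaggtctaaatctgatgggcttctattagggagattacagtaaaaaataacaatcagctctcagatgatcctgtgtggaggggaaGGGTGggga

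Of the 5 genes, 4 had a promoter in the RefSeq table, and each of the 4 held CACCC on 1 strand or the other. That word was present in 54.2% of 21263 promoter windows of protein-coding genes of the same length. With only 4 genes, nothing is read from the difference. The Myh9 window had 3 matches, at 202, 190 and 38 bases before the start (first base of each), and 7.44% of all windows had as many. The Vim window had 2 matches, at 235 and 126 bases before the start, and the windows of both Cald1 starts and of Mylk had 1 each. The longer words CCACACCC or CCCCACCC, each of which contains CACCC, were found on either strand in the windows of Vim, Mylk and the second Cald1 start, against 12.8% of all windows. The GC box GGGCGG, on either strand, occurred 4 times in the Myh9 window, while 5.59% of all windows had as many and 42.6% had at least 1; one of the 4 shares a base with a CACCC match. It did not occur in the other 4 windows of these genes. The Myh9 window was 62.4% G and C, that of Vim 58.4%, that of Mylk 53.6% and those of Cald1 50.4% and 45.6%, with a median of 55.6% over all windows. A match shows only that the letters are there.

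Within the list, fold enrichment is the authors' ratio of ChIP over input-derived background, with 1 added to each, and q is the authors' adjusted p for a peak. Over the whole list the median fold was 4.59 (quartiles 4.54 and 4.94, range 1.62 to 14.5) and the median width was 201 bp. The number of ChIP fragments at the summit, recovered from fold and p, was 5 or 6 at 75.3% of peaks. Promoter peaks (up to 3 kb from a transcription start site, TSS) were at 3 of the 5 genes, against 2.18% of 21900 protein-coding genes. The same 3 genes had one within 1 kb, against 1.19%. Since the genes were chosen for their peaks, nothing is read from these differences. The 7 peaks had folds of 4.58 to 5.62 from 5 to 9 fragments, and none had a background over 3.13 times the lowest value of the list (0.307 fragments). Many peaks shared that lowest value, among them 989 with the fold and q of Myh9 and 142 with those of Mylk intron 25. Whether it was local to each peak was not tested.

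Myosin comes first, as the motor. Myh9 (ENSMUSG00000022443) had 1 peak, of 425 bp, on chromosome 15 from 77726239 to 77726663. It spanned the start of the transcript ENSMUST00000016771, reaching from 288 bp upstream to 136 bp downstream of it, and was annotated as promoter within 1 kb. This transcript runs over 81589 bp, and the RefSeq span of the gene is 81591 bp, so the transcript has about the full span of the gene. Of 283 peaks within 1 kb of a protein-coding start, 64 (22.6%) covered the start itself as this one did. The fold was 4.59 and the q was 0.0475, close to the highest q in the list, 0.0491. The summit held 5 fragments (95% exact Poisson interval 1.62 to 11.7) over the lowest background. A total of 989 peaks of the list had exactly this fold and q, so by strength the Myh9 peak could not be told from the commonest kind of peak. It was wider than most of them: 173 of the 1633 peaks with 5 fragments were wider.

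Caldesmon had 2 promoter peaks, more than any other of the 5 genes. The first Cald1 (ENSMUSG00000029761) peak covered 368 bp of chromosome 6, from 34720906 to 34721273, ending 1614 bp upstream of the start of ENSMUST00000123823. Its fold of 5.62 was the highest of the 7 peaks, with a q of 0.00178 and 9 fragments (interval 4.12 to 17.1) over 2.54 times the lowest background. In the whole list 257 peaks (6.10%) had a higher fold, and among 543 promoter peaks of protein-coding genes 41 did. The second peak, of 136 bp from 34724923 to 34725058, began 215 bp downstream of the start of ENSMUST00000146685. It had a fold of 4.97, a q of 0.0184 and 7 fragments (interval 2.81 to 14.4) over 1.98 times the lowest background, and 996 peaks (23.6%) had a higher fold.

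The 2 Cald1 peaks were 3649 bp apart, and the starts they were assigned to were 1821 bp apart. The second peak also lay 2036 bp inside the transcript of the first. Among the 509 protein-coding genes with a promoter peak in the list, 21 (4.13%) had 2 or more. Both starts belong to short transcripts, of 9946 and 5735 bp, which are 5.62% and 3.24% of the RefSeq span of the gene (176975 bp). Whether either start is a main Cald1 promoter was not tested.

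Vimentin had the widest of the 7 peaks. The Vim (ENSMUSG00000026728) peak covered 739 bp of chromosome 2, from 13577938 to 13578676, and reached from 800 to 62 bp upstream of the start of ENSMUST00000141365. Only 34 of the 4216 peaks (0.806%) were wider, and of 283 peaks within 1 kb of a protein-coding start 2 were. Among the 498 peaks with 7 fragments, as many as the Vim peak had, the median width was 188 bp and 4 peaks were wider. Its strength did not stand out in the same way, with a fold of 5.04, a q of 0.0147 and a background of 1.91 times the lowest, and 923 peaks (21.9%) had a higher fold. The interval of its 7 fragments was 2.81 to 14.4. The transcript whose start it precedes is only 907 bp long, or 10.7% of the RefSeq span of the gene (8516 bp), and its start was not compared with the main Vim start.

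Short transcripts of this kind were common in the annotation. Of 509 promoter peaks of protein-coding genes matched to RefSeq, 225 (44.2%) were assigned to a transcript under 50% of the span of the gene, and 103 (20.2%) to one of at most 11%. The 3 promoter peaks of Cald1 and Vim were among the second group, and that of Myh9 was in neither. The label of a promoter peak therefore rests on a transcript of full span for Myh9 alone of the 3 genes.

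**Figure D1:**
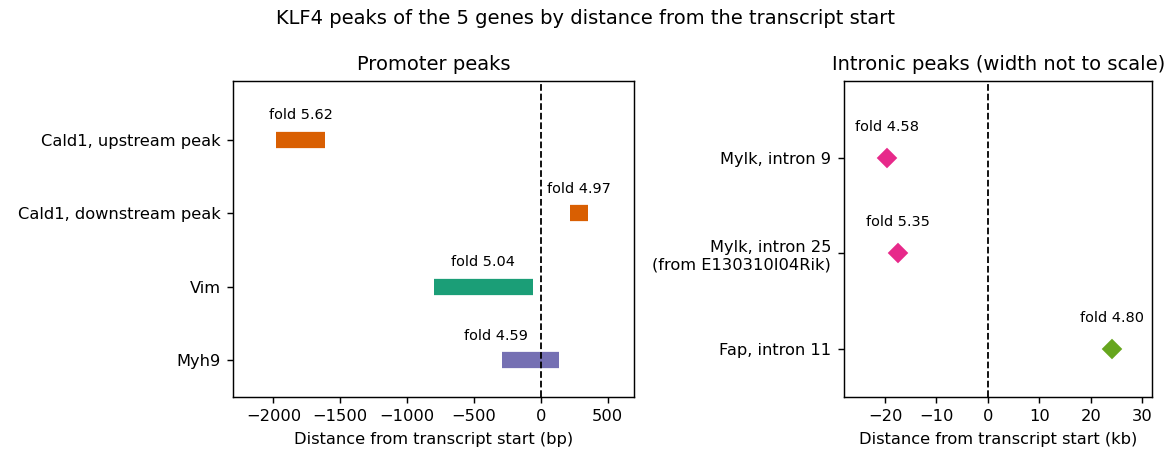
Positions of the 7 peaks relative to the start of the transcript named in the authors' annotation (dashed line, at 0), with promoter peaks on the left (bp, bars drawn to scale) and intronic peaks on the right (kb, diamonds at the peak centre); negative is upstream, and the Mylk intron 25 peak is placed from the start of E130310I04Rik. The Myh9 bar crosses the start, the Vim bar ends 62 bp before it, and the Cald1 bars lie on either side of their own starts.

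Myosin light chain kinase had peaks inside the gene and none at a promoter. The first, in intron 9 of 31 of the Mylk (ENSMUSG00000022836) transcript ENSMUST00000023538, covered 247 bp of chromosome 16 from 34700898 to 34701144. It lay 19.5 kb upstream of the nearest start, that of the internal Mylk transcript ENSMUST00000232482. This peak had 8 fragments (interval 3.45 to 15.8), the second highest number of the 7, over a background of 3.13 times the lowest, which gave the lowest fold of the 7, 4.58. Its q was 0.0443, and 2514 peaks (59.6%) had a higher fold.

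The second Mylk peak lay 95.5 kb further along, in intron 25 of 31 of the same transcript. It covered 213 bp from 34796646 to 34796858. The authors' annotation assigned it to E130310I04Rik, a long non-coding gene on the opposite strand, whose start was 17.3 kb away, with the peak upstream of it. It had a fold of 5.35, the second highest of the 7, a q of 0.00523 and 6 fragments (interval 2.2 to 13.1) over the lowest background, and 142 peaks of the list had exactly this fold and q. Among 1349 intronic peaks 95 had a higher fold. Assignment to a gene other than the one that holds the intron was frequent, at 578 of the 1349 intronic peaks (42.8%). Of 1119 genes with an intronic peak, 167 (14.9%) had 2 or more, as Mylk did.

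Fibroblast activation protein had 1 intronic peak, the narrowest of the 7. The Fap (ENSMUSG00000000392) peak covered 107 bp of chromosome 2, from 62369927 to 62370033, in intron 11 of 25 of ENSMUST00000102732. It lay 24.0 kb downstream of the start of ENSMUST00000172676, the nearest one, on the minus strand. Its fold was 4.80, with a q of 0.0329 and 6 fragments (interval 2.2 to 13.1) over 1.49 times the lowest background, and 73 peaks had exactly this fold and q. In the whole list 3908 peaks (92.7%) were wider.

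Side by side, the order of the 7 peaks depended on the measure. By fold the order was the first Cald1 peak, Mylk intron 25, Vim, the second Cald1 peak, Fap, Myh9 and Mylk intron 9. By fragments the first Cald1 peak again led, with 9, and was followed by Mylk intron 9 with 8. Vim and the second Cald1 peak had 7 each, Mylk intron 25 and Fap 6 each, and Myh9 had 5. The intervals of all 7 overlapped between 4.12 and 11.7 fragments, so counting error alone does not separate any of them. Their median fold was 4.97, against 4.59 over the list, and their median width was 247 bp, against 201 bp. A fold above the list median was seen at 5 of the 7, against 36.2% of the whole list, since many peaks were tied at the median. A width above the list median was seen at 5 of the 7. The genes were chosen for their peaks, so nothing is read from these counts. A q under 0.01 was reached by the first Cald1 peak and Mylk intron 25 (2 of 7), against 735 of the 4216 peaks (17.4%).

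**Figure D2:**
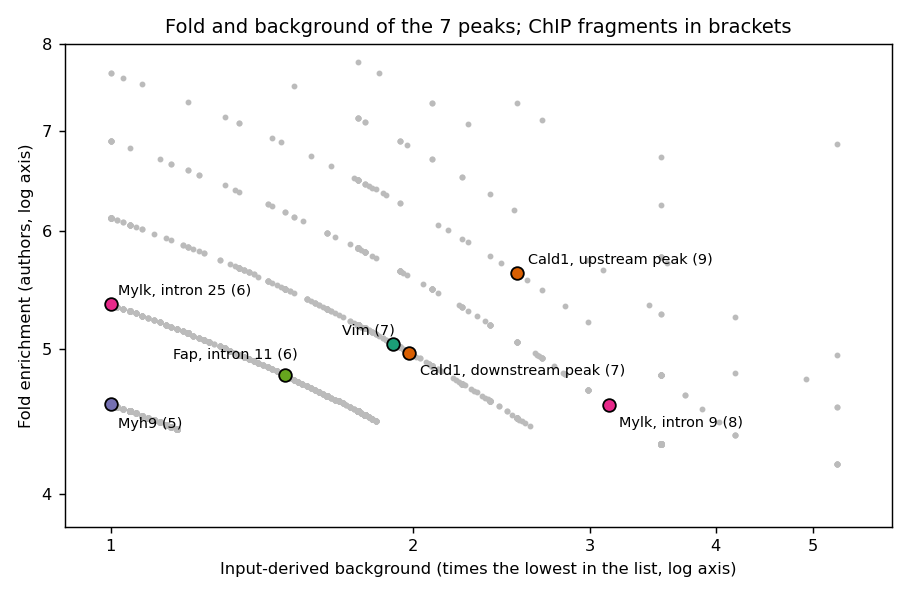
Fold enrichment (y axis, log scale, the authors' ratio) against input-derived background (x axis, log scale, times the lowest in the list) for the 7 peaks (coloured, ChIP fragments in brackets) and the other peaks (grey; 226 of the 4216 lie outside the axes). Grey points run along lines of equal fragment number; the Mylk intron 9 peak, with 8 fragments, lies furthest right at 3.13 times and lowest in fold, while Myh9 and Mylk intron 25 lie at the lowest background.

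**Figure D3:**
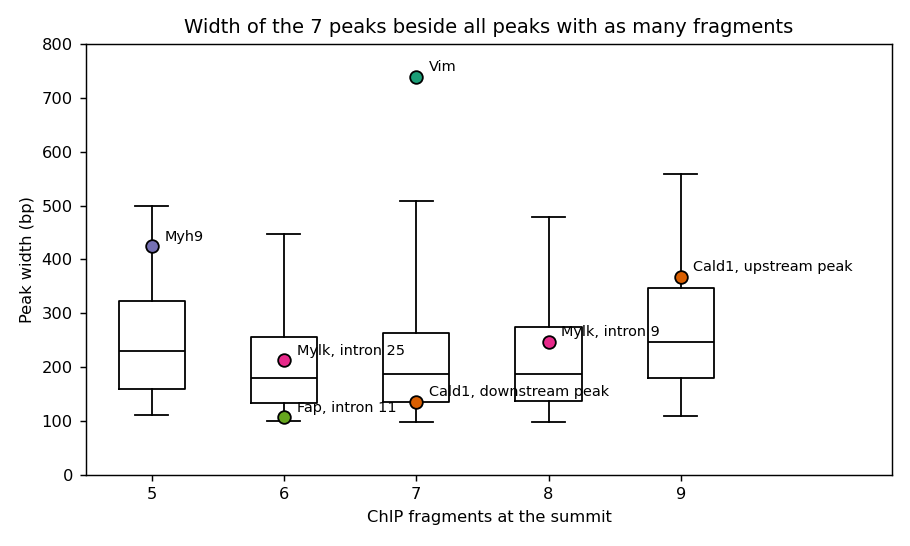
Peak width (y axis, bp) by number of ChIP fragments at the summit (x axis) for the 7 peaks (points) beside all peaks with as many fragments (boxes are quartiles with the median, whiskers the 5th and 95th percentiles). Vim, at 739 bp, lies above the whisker of the peaks with 7 fragments, whose median was 188 bp.

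Within 100 kb of the 7 peaks, 1 other peak was listed, 48.7 kb beyond the second Cald1 peak, in an intron of another gene. It was assigned to the processed pseudogene Gm13864, with a fold of 4.77 from 11 fragments and a q of 0.00731.

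The pathway and gene ontology labels in the authors' table tie 3 of the 5 genes together. Cald1, Myh9 and Mylk shared the pathway label for contraction of vascular smooth muscle, which 14 of the 1586 protein-coding genes in the list carried (0.883%). They also shared the ontology term for actin binding (39 genes, 2.46%). Myh9 and Mylk carried the term for stress fibers, the contractile actin bundles (13 genes, 0.820%). Fap, Myh9 and Vim carried the term for focal adhesions (43 genes, 2.71%). The 5 genes were picked for having peaks and, apart from Fap, among contractile and cytoskeletal genes, so these labels describe them and support nothing. Among the other 11 genes with the smooth muscle contraction label were 4 for subunits of protein phosphatase 1 and myosin phosphatase, named after their values were seen. The label was read only at genes with a peak, so phosphatase genes without one were not counted and nothing is read from the 4. Ppp1r12a, the myosin-targeting subunit, had an intronic peak with a fold of 5.22. Its relative Ppp1r12b had 2 intronic peaks with folds of 4.65 and 4.67. Both genes are named by assigned symbol, and whether the introns belong to them was not checked. The protein phosphatase 1 catalytic subunit genes Ppp1ca, with a promoter peak 1039 bp inside its transcript, and Ppp1cc, with an intergenic peak, both had folds of 4.59. The highest fold among the 11 was that of Kcnmb1, a subunit of a calcium-activated potassium channel, 5.30 in its 3′ UTR.

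Across 6 lists, all of contractile and cytoskeletal genes except that of FAP and related serine proteases (8 genes), 89 genes were counted. Of these, 7 had a promoter peak (7.87%), against 2.18% of all protein-coding genes. The 7 include Cald1, Vim and Myh9, and without the 5 genes the count was 4 of 84 (4.76%). Any assigned peak was found at 14 of the 89 (15.7%), against 6.91% of all protein-coding genes, and at 9 of 84 (10.7%) without the 5 genes. Genes of the lists were longer, with a median span of 32.2 kb against 17.1 kb, and whether gene length bears on these shares was not tested. The lists were chosen with results of these data known, so the shares describe them and carry no test.

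Over all protein-coding genes the share with a promoter peak was 2.18%, and in each of the next 3 lists 1 of the 2 genes counted was chosen for its peak (Myh9, Cald1 or Vim). In the list of actins and myosins, 2 of 18 genes had a promoter peak (11.1%), Myh9 and Myl12b, which encodes a regulatory light chain of non-muscle myosin. The Myl12b peak lay 2389 bp downstream of its start, with the same fold of 4.59 and 5 fragments as that of Myh9. No peak was assigned to the actin genes or to the other myosin heavy chains of the list. Only 6.91% of all protein-coding genes had any assigned peak, so nothing is read from absence at so few genes. Among actin-binding and thin filament genes 2 of 24 had a promoter peak (8.33%), Cald1 and Tpm4, a tropomyosin, with a fold of 4.32 from 8 fragments at 830 bp from the start. Among intermediate filament and lamina genes 2 of 12 had one (16.7%), Vim and Plec, which encodes the linker protein plectin. The Plec peak, of 584 bp, spanned its start as that of Myh9 did and had the same fold of 4.59.

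Focal adhesion genes had a promoter peak at 1 of 17, Fermt2 (kindlin-2, an integrin activator, fold 4.54, 571 bp upstream), and any peak at 5 of 17 (29.4%), against 2.18% and 6.91% of all protein-coding genes. The median span of these genes was 84.6 kb, against 17.1 kb over all protein-coding genes, and 4 of the 5 had peaks in introns or between genes. These 4 were Lpp, a LIM protein of adhesions, with a fold of 5.84 in intron 7, Parva (parvin alpha, 5.19), Tns1 (tensin, 4.59) and Tln2 (talin 2, 4.54, intergenic). Among regulators of the SRF and MRTF pathway, which drives actin and contractile genes, 0 of 10 had a promoter peak and Mrtfb, a coactivator of SRF, had an intronic one with a fold of 5.84 and a q of 0.00121. Among 8 genes for FAP and related serine proteases, 1 had a peak (12.5%, against 6.91% of all protein-coding genes). That gene was Fap itself, which was chosen for its peak, so no contrast with its relatives is read. Peaks of the lists were taken by assigned symbol, so intronic peaks assigned to another gene were not counted. Whether each intron belongs to the gene named was not checked. At the depth of these libraries, a gene without a listed peak is not shown to be free of KLF4.

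**Figure D4:**
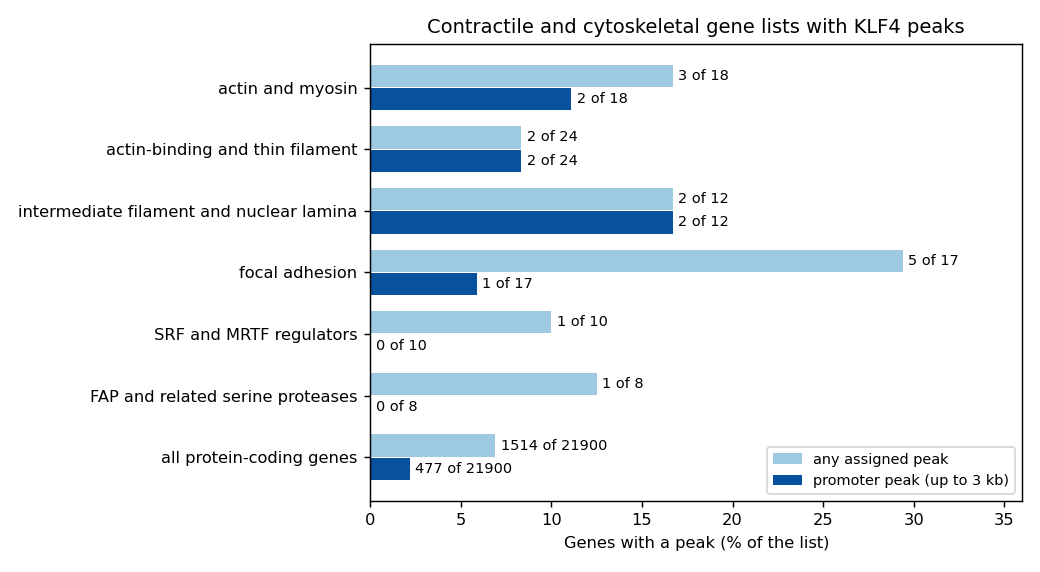
Share of genes (x axis, % of each list) with any assigned KLF4 peak (light bars) and with a promoter peak up to 3 kb from a TSS (dark bars), for 6 gene lists and, at the bottom, all protein-coding genes; counts stand beside the bars. In the 6 lists the shares for any peak run between 8.33% (2 of 24) and 29.4% (5 of 17), against 6.91% of all protein-coding genes. Promoter peaks are at 0 in 2 of the lists, against 2.18% of all protein-coding genes. The bars include the 5 genes chosen for their peaks, and without them any peak was at 9 of 84 list genes (10.7%).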

How the data were processed

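KLF4 ChIP and input chromatin were each represented by 1 library, grouped by title. Per the submitters' processing notes, the tools were MACS2 2.2.7.1 and ChIPseeker 1.44.0 with Bowtie2 2.4.2, fastp 0.24.0, bcl2fastq 2.17 and deepTools 3.4.1, on GRCm39 (mm39), with parameters not given in the sources used here. In the deposited table the fold of each peak is a ratio of ChIP over background, and the deposited p-value, q-value and −log10 columns are the authors' own. Widths, classes and distances were used as deposited, per the file headers.

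A whole number of ChIP fragments and a background were recovered from fold and p, as MACS2 defines them, for 4215 of 4216 peaks within 0.001 of −log10 p, and the method was tested on simulated data. Intervals of fragment numbers are 95% exact Poisson and cover counting error only, not the selection of peaks. Library totals were not used here. Genes were matched by symbol to RefSeq on GRCm38.p6 (21900 protein-coding symbols, all 89 list genes matched), which was used for names, spans and promoter sequences, never for peak positions. Peak sequences were not analysed here, so the motif search used promoters.

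The 5 genes and all lists were chosen with earlier results of these data known. Named were every peak of the 5 genes, list genes with a promoter peak, up to 4 others per list by fold, and genes assigned to peaks within 100 kb. Genes of the contraction label were named outside this rule, after their values were seen. One further gene list is not reported here. The tools were scipy 1.17.1, pandas 2.3.3, numpy 2.4.6 and matplotlib 3.10.9 under Python 3.11.15.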

Additional observations from a re-analysis of the deposited data

How the results depend on the processing

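With 1 library per group, no replicate could be left out. No paired analysis was possible because each group had 1 library and no result came from a test. With a q under 0.01 the 7 peaks became 2, the genes of the 5 with a promoter peak 1 of 3 (Cald1), the 7 list genes with a promoter peak 1 (Cald1, 1.12% of 89 against 0.411% of all protein-coding genes) and the 14 list genes with any peak 3 (3.37% against 1.13%); fewer peaks enter at that limit. With peaks above the median fold only, the 14 became 6 (6.74% against 2.68%). Without the 5 genes themselves, added after the data were seen, 4 of 84 list genes had a promoter peak and 9 had any peak. With a q under 0.01 these counts became 0 and 2 (2.38% for any peak). With peaks above the median fold only, the 9 became 3 (3.57%). The larger shares above thus include genes chosen for their peaks. For motifs, all 4 genes with a promoter window had CACCC and 1 had the GC box, also added later; Fap had no window. The other alternatives left each count within 1.5 times its value: symbols only (6 peaks), fold above the median (5 peaks, 2 promoter genes), background at most 10 times the lowest (7), promoters up to 1 kb or 2 kb (3 genes), the longer motif (3 genes), and strength by −log10 q, by fragments or within a class (6, 4 and 5 of the 7 peaks above the median, 5 by fold). Over the whole list, 36.9% of peaks were above the median by −log10 q, 36.2% by fold and 1040 of 4216 by fragments. Motif windows of 200 or 400 bp at the peaks were not run. A fragment number of 5 to 9 limits every value given for a single peak.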
